A study of Mus musculus with 36 samples.

Results

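Untreated kidneys of ob/ob mice (ob) were set against untreated kidneys of C57BL/6 mice (b6j). The 12 libraries were chosen by their titles as replicates 1 to 6 of the control group of each type, out of 36 in the series. Per the labels both types carry the C57BL/6 strain label and neither control group received CdCl2. The other 24 libraries come from mice of both types given CdCl2 at 0.5 or 2 mg/kg, and they serve here only to look at the same genotype difference in other mice. Sex, age, diet, hour of death and whether the types were raised together are not given in the sources used here. Nothing in the labels says that each library is a separate animal, so the p-values measure the spread between these libraries.

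The ob/ob mouse carries a null mutation of Lep, the gene for leptin, a hormone that fat releases and that restrains feeding through its receptor in the hypothalamus. Without working leptin the mice overeat and become obese and insulin resistant, and their pituitary and gonadal axis is impaired. The kidney filters blood in glomeruli and reclaims water, salts, sugar, amino acids and phosphate along the nephron, most of it in the proximal tubule. In mice the proximal tubule is also a target of sex steroids, pituitary hormones and nutrient signals, and its last segment, S3, is the one in which males and females differ most.

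The 12 libraries held 29175616 to 37244058 counted reads, so that 3 counts, taken here as the floor of detection, are worth 0.0805 to 0.103 CPM (counts scaled to a common library total). Of 55536 annotated genes 25516 had no count in these libraries and 16349 passed the expression filter and were tested. All p-values are from the quasi-likelihood test of edgeR, adjusted by Benjamini and Hochberg over those 16349 genes, and a gene is called at an adjusted p below 0.05. Differences are log2 values, ob minus b6j, with their standard error. Levels are in CPM, given as the lowest, highest and median of 6 libraries. Along the leading principal component (42.3% of the variance) the 6 ob libraries lay between -29.2 and -16.1 and the 6 b6j libraries between 17.9 and 29.0. Markers of the nephron were present throughout: Umod of the thick ascending limb lay between 1674 and 2599 CPM and Slc34a1 of the proximal tubule between 4943 and 7483 CPM.

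Kidneys of the types differed in many genes by a little and in few genes by much. Of the 16349 genes 5007 were called (30.6%), 2416 higher in ob (14.8%) and 2591 lower (15.8%). The median size of a called difference was 0.356 on the log2 scale, and 75.1% of the called genes differed by less than 1.5-fold. Above 2-fold stood 465 genes (2.84%), 231 higher (1.41%) and 234 lower (1.43%). Above 4-fold the counts were unequal, 27 higher and 67 lower. In 2412 genes (14.8%) the 6 ob libraries did not overlap the 6 b6j libraries, 990 with ob above (6.06%) and 1422 with ob below (8.7%). The balance of directions rests on the scaling between libraries: with library size alone the median of all genes moved from 0.0321 to 0.159 and 78.1% of the calls were higher in ob, against 48.3% with the scaling used.

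**Figure D1:**
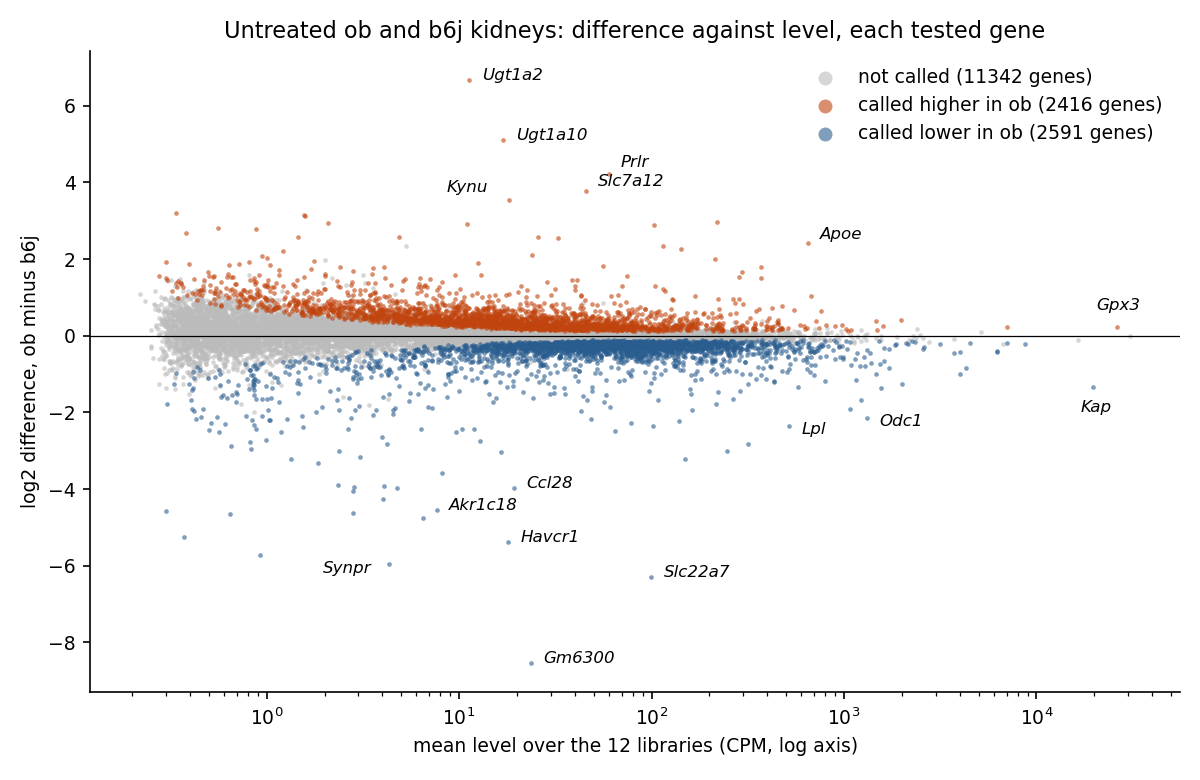
Log2 difference between untreated ob and b6j kidneys against the mean level over the 12 libraries in CPM on a log axis, with 1 point for each of the 16349 tested genes. Called genes are in colour, 2416 higher and 2591 lower in ob, and some points far from 0 or of high level carry their symbols.

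Among called genes without overlap and with a mean of at least 5 CPM in the higher group, the largest gains in ob were in a detoxifying enzyme locus, a hormone receptor and an amino acid carrier. Prlr (ENSMUSG00000005268, chr15:10177238-10349180 of GRCm38), the receptor of prolactin, lay at 93.5 to 137 CPM (median 113) in ob and at 3.08 to 14.6 CPM (median 4.52) in b6j. The highest b6j library, replicate 6, was still far below the lowest ob library. The log2 difference was 4.23 ± 0.29 (adjusted p = 1.54e-08). Slc7a12 (chr3:14480697-14505830), an amino acid carrier of the S3 segment that female mice express more than males, lay at 67.7 to 96.4 CPM (median 87.5) against 3.11 to 10.5 CPM (median 5.62), a difference of 3.79 ± 0.20 (adjusted p = 9.68e-10). Kynu, which encodes kynureninase of tryptophan breakdown, lay at 26.0 to 40.9 CPM (median 33.8) against 1.75 to 3.97 CPM (median 2.98), a difference of 3.54 ± 0.16 (adjusted p = 2.50e-10). Bhmt, which remethylates homocysteine with betaine and is chiefly a liver enzyme, lay at 13.8 to 25.7 CPM (median 18.9) against 1.34 to 3.75 CPM (median 2.496), a difference of 2.93 ± 0.20. In none of these did the groups overlap.

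Members of the Ugt1a locus, which share their last exons and differ in the first, gave the largest of these gains. Ugt1a2 lay at 4.20 to 40.6 CPM (median 26.0) in ob and at 0.0603 to 0.406 CPM (median 0.179) in b6j, where 3 counts are worth 0.0805 to 0.103 CPM, and Ugt1a10 at 22.2 to 43.9 CPM (median 33.5) against 0.396 to 1.91 CPM (median 0.715). The differences were 6.68 ± 0.58 and 5.10 ± 0.26. Reads in the shared exons cannot be given to 1 member, so the split between the members is uncertain. Cyp4a14, a fatty acid hydroxylase induced through the nuclear receptor PPAR-alpha, was higher by 2.96 ± 0.44 with b6j replicate 5 at 145 CPM, far above the b6j median of 28.7 CPM, and by 3.66 without that library. Aldh1a1, a retinaldehyde dehydrogenase, lay at 50.5 to 69.8 CPM (median 54.1) against 8.43 to 12.3 CPM (median 8.998) and differed by 2.54 ± 0.099, with little spread inside either group. Apoe, the apolipoprotein of cholesterol transport, lay at 820.5 to 1441 CPM (median 1131) against 167 to 246 CPM (median 195), a difference of 2.41 ± 0.13 (adjusted p = 9.68e-10). The 2 predicted genes Gm10639 (2.58) and Gm6614 (2.57) were also among the 12 largest gains, the latter at 3.67 without b6j replicate 4.

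The largest losses in ob were of an organic anion transporter, a steroid enzyme, a chemokine and several scarce transcripts. Slc22a7 (ENSMUSG00000067144, chr17:46432183-46438457), the organic anion transporter OAT2, lay at 1.30 to 4.88 CPM (median 1.89) in ob and at 105 to 257 CPM (median 198) in b6j, a difference of -6.30 ± 0.29 (adjusted p = 2.50e-10). No ob library came near the lowest b6j library. Akr1c18, the 20-alpha-hydroxysteroid dehydrogenase that inactivates progesterone, lay at 0.291 to 0.864 CPM (median 0.682) against 10.9 to 22.1 CPM (median 12.3), a difference of -4.54 ± 0.25. Ccl28, a chemokine of epithelia, lay at 1.19 to 3.29 CPM (median 2.51) against 18.9 to 70.2 CPM (median 30.8), a difference of -3.97 ± 0.30. Sec14l3, a lipid-binding protein, was lower (-3.92 ± 0.30).

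The pseudogene Gm6300 (chr3:14363117-14377587) was the most unequal feature of all and lies beside Slc7a12 on the same chromosome, yet moved the opposite way. It held 14, 0, 6, 2, 2 and 0 reads in the 6 ob libraries and 1056 to 1815 reads in the b6j libraries, a difference of -8.55 ± 0.31 (adjusted p = 3.23e-11). With ob libraries at or near the floor that value is not a measure of size, and it was -9.52 without ob replicate 1. The same holds for Synpr (-5.97), a synaptic vesicle protein, and Neurog2 (-4.63), a neuronal transcription factor, whose lowest ob libraries had 0 reads. Neurog2 was at -6.68 without ob replicate 3, the ob library that held 1.05 CPM. Ctxn3, Cntnap5a and Col19a1, a collagen, lay at 0.126 to 1.05 CPM, 0.130 to 0.632 CPM and 0.0597 to 0.695 CPM in ob. In b6j they lay at 6.76 to 24.7 CPM, 5.55 to 10.4 CPM and 2.35 to 8.78 CPM. The groups did not overlap in any of them. The long RNA gene Gm31774 (-3.96) completed the 12 largest losses.

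Havcr1 (KIM-1), a membrane protein of injured tubules, lay at 0.520 to 1.17 CPM (median 0.801) in ob and at 2.14 to 182 CPM (median 5.40) in b6j. A single library, b6j replicate 4, held 181.6 CPM and the next held 13.0 CPM. The difference was -5.39 ± 1.13 (adjusted p = 0.00156) with that library and -2.77 ± 0.41 (adjusted p = 7.70e-05) without it. With limma-voom it was lower but not called (adjusted p = 0.0549), and DESeq2 gave no adjusted p for it.

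**Figure D2:**
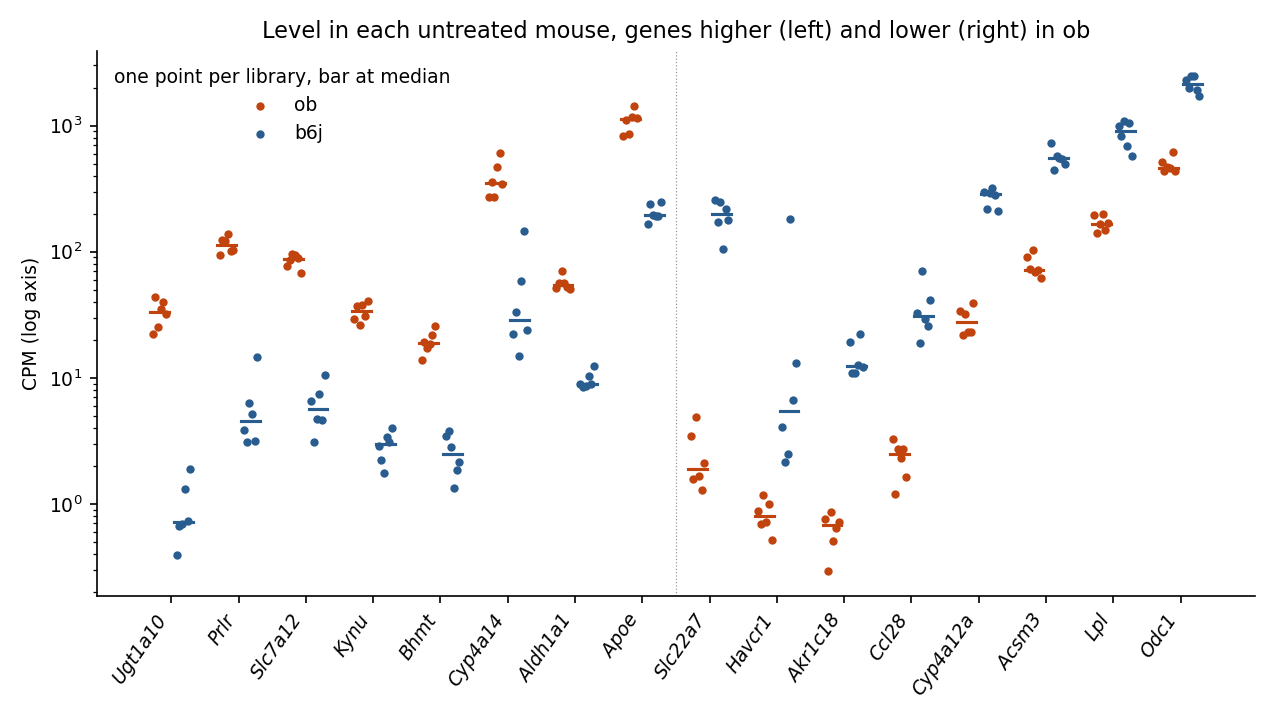
Levels in CPM on a log axis of 16 genes in each untreated library, ob beside b6j, with a bar at the median of 6. The 8 genes on the left are higher and the 8 on the right lower in ob, and in none of the 16 do the groups overlap. The b6j point at 181.6 CPM for Havcr1 is replicate 4.

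In terms of transcript mass other genes led. Kap, the kidney androgen-regulated protein of the proximal tubule, fell from a mean of 28178 ± 3261 CPM in b6j to 11054 ± 2900.0 CPM in ob (SD, n = 6), a difference of -1.35 ± 0.14. Acsm2 (-1.01 ± 0.085), a medium-chain acyl-CoA synthetase of the proximal tubule, was lower as well, at 2663 ± 419 CPM against 5350.5 ± 336 CPM. Cyp4b1 (-0.85 ± 0.10), Slc34a1 (-0.41 ± 0.055), the main phosphate transporter, and Odc1 (-2.14 ± 0.10), the first enzyme of polyamine synthesis, were also among the 6 largest losses in CPM, with mt-Nd2 (-0.41 ± 0.077) of the mitochondrial genome. The 6 largest gains in CPM held abundant genes with small ratios, such as Gpx3 (0.23 ± 0.065), the plasma glutathione peroxidase made by the kidney, and Klk1 (0.42 ± 0.091), tissue kallikrein. Spp1 (1.04 ± 0.086), osteopontin, Hao2 (1.78 ± 0.11), a peroxisomal hydroxyacid oxidase, and Apoe were among them too. Hao2 lay at 534 to 626 CPM (median 577) in ob and at 125 to 211 CPM (median 179) in b6j, with no overlap.

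Lep itself was near the floor in b6j, at 0 to 0.188 CPM, and uneven in ob, at 6.32, 3.20, 1.91, 1.19, 0.0590 and 7.99 CPM in replicates 1 to 6. The mutation ends the protein early and the gene is still transcribed, so these reads do not check the genotype label. Lep did not pass the expression filter and was not tested. Adipoq and Ucp1, which mark white and brown fat, were also highest in ob replicates 1 and 6 and lowest in replicate 5, Adipoq at 5.63, 1.803, 3.27, 2.09, 0 and 6.56 CPM and Ucp1 at 26.2, 1.16, 5.19, 6.86, 0 and 13.65 CPM. In b6j Adipoq lay between 0.250 and 0.735 CPM in 5 libraries and at 4.63 CPM in replicate 6. Neither gene was called (1.51 and 2.33), and both were called higher without b6j replicate 6 (2.90, adjusted p = 0.00622, and 5.39, adjusted p = 0.00223). Adipoq was also called higher without ob replicate 5 (1.77, adjusted p = 0.0473). The 12 fat markers together summed to 147 to 331 CPM in ob and 184 to 303 CPM in b6j. Of 11 tested 1 was called, Plin4 (0.90 ± 0.20). The median log2 difference of those 11 was 1, against 0.0321 among all genes. It lay between 0.75 and 1.78 in the other settings. The part of fat left on the kidney in the Lep reads was not tested. Lepr, the leptin receptor, lay at 5.99 to 14 CPM (median 10.7) against 8.36 to 12.7 CPM (median 9.64) and was not called (0.03 ± 0.17, adjusted p = 0.897).

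Genes near Lep were called about as often as genes elsewhere. Within 10 Mb of Lep on chromosome 6, 27 of 94 tested genes were called (28.7%), against 29.9% of chromosome 6 and 30.7% of the other chromosomes. Within 5 Mb it was 13 of 49 (26.5%), 1 of them above 2-fold. The called neighbours of smallest p were Irf5 (-0.87 ± 0.094), an interferon regulatory factor, the podocyte gene Podxl (0.60 ± 0.071), Snd1 (-0.42 ± 0.050), Cald1 (0.63 ± 0.078), a smooth muscle caldesmon, the sulfate transporter Slc13a1 (0.74 ± 0.094) and Cadps2 (0.64 ± 0.097). Of 5 genes that differ between C57BL/6 substrains, Nnt lay at 0.632 to 1.18 CPM in ob and 0.141 to 1.04 CPM in b6j and was not called (0.36 ± 0.34), and the called Cyfip2 (-0.32 ± 0.066) and Ide (-0.31 ± 0.056) differed by less than 1.3-fold.

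Genes of pituitary hormone signalling were called in both directions, about as often as all genes. The receptors Prlr and Ghr moved opposite ways, the feedback inhibitors Cish and Socs2 were lower, and Igfbp3 and Stat3 were higher. Growth hormone and prolactin act through the kinase JAK2 and the factors STAT5A and STAT5B, which induce the feedback inhibitors Cish and Socs2. Of 18 tested genes of leptin, prolactin, growth hormone and JAK-STAT signalling 3 were higher and 3 lower, a share near the 30.6% of all genes. DESeq2 and limma-voom each gave 6 lower. Beside Prlr, the growth hormone receptor Ghr lay at 355 to 544 CPM (median 483) in ob and at 722 to 1007 CPM (median 804) in b6j without overlap, a difference of -0.87 ± 0.10 (adjusted p = 6.75e-06). Socs2 lay at 2.59 to 6.01 CPM (median 4.48) against 5.55 to 20.6 CPM (median 12.8) and Cish at 7.90 to 12.2 CPM (median 10.3) against 12.6 to 49.3 CPM (median 21.7). Their differences were -1.59 ± 0.30 and -1.33 ± 0.29. In Cish the groups did not touch, while in Socs2 the highest ob library passed the lowest b6j library. Igfbp3, the main carrier of IGF-1 in blood, was higher (0.96 ± 0.092) and so was Stat3, by little (0.22 ± 0.056). The kinases and factors Jak1, Jak2, Stat5a and Stat5b were not called, with values from -0.19 to 0.08. Stat5a was called lower with DESeq2 (-0.20), limma-voom (-0.19) or RLE scaling (-0.20), and without ob replicate 1 (-0.23) or b6j replicate 4 (-0.21). Socs3, the inhibitor that leptin induces, was at 2.97 to 3.63 CPM in ob and 2.29 to 3.44 CPM in b6j (0.17 ± 0.14, not called).

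Most listed genes that male kidneys express more were lower in ob, and most that female kidneys express more were higher. Of 14 androgen-responsive and male-biased genes 12 were lower and none higher, with a median of -1.10, against 15.8% lower and a median of 0.0321 among all genes. With library size alone 11 were lower and 1 higher. Cyp4a12b, a close copy of Cyp4a12a, was not called and was called lower (-0.50) without b6j replicate 4. Cyp4a12a, the male-specific arachidonate hydroxylase, lay at 21.7 to 39.1 CPM (median 27.5) in ob and at 211 to 317 CPM (median 287) in b6j. Acsm3, an acyl-CoA synthetase, lay at 61.8 to 103 CPM (median 72.0) against 441 to 729.9 CPM (median 550.3), and Odc1 at 435 to 620.2 CPM (median 464) against 1722 to 2493 CPM (median 2142). Neither of these nor Cyp4a12a overlapped between groups, and the differences were -3.23 ± 0.15, -2.83 ± 0.13 and -2.14 ± 0.10. Cyp7b1, which hydroxylates steroids and oxysterols, the organic anion transporter Slco1a1 and Gusb, beta-glucuronidase, were lower as well (-2.35 ± 0.17, -3.00 ± 0.30 and -1.17 ± 0.096). Because part of this list was known to be lower in these libraries, the count is a description.

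Of 6 female-biased genes 5 were higher (Prlr, Slc7a12, Cyp4a14 and the efflux pumps Abcc4 and Abcc3), with a median of 2.60. Abcc4 lay at 194 to 266 CPM (median 241) in ob and at 34.7 to 66.4 CPM (median 48.5) in b6j, a difference of 2.25 ± 0.13 (adjusted p = 3.20e-09), and Abcc3 differed by 1.58 ± 0.11. The predicted gene Gm4450 was not called (-0.21). The Y-linked Ddx3y lay between 40.4 and 57.7 CPM in every library and Xist, of the inactive X, at no more than 0.313 CPM. Ddx3y was called slightly higher in ob (0.22 ± 0.075, adjusted p = 0.0338), a call that ended without any 1 of 7 libraries (ob replicates 1, 4 and 5, b6j replicates 2, 3, 5 and 6). All 12 thus carry the Y-linked transcript, and sex is not given in the labels.

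Markers of the glomerulus and of vessels were higher in ob, markers of the S3 segment lower. In bulk tissue fewer cells of a type and less RNA per cell cannot be told apart. Of 15 podocyte markers 14 were higher and none lower, with a median of 0.566. Their summed level was 602 to 661 CPM in ob and 369 to 464 CPM in b6j. Nphs1, nephrin of the slit diaphragm, lay at 22.9 to 28.0 CPM (median 24.1) in ob against 9.44 to 15.6 CPM (median 10.7) in b6j. It differed by 1.08 ± 0.11, with no overlap. Cdkn1c, a cell cycle inhibitor of mature podocytes, was higher by 0.87 ± 0.078 and Podxl by 0.60 ± 0.071. Of 16 endothelial markers 13 were higher and none lower (median 0.416, summed level 1054 to 1197 against 678 to 897 CPM), among them Kdr (0.60 ± 0.093), the VEGF receptor, Tek (0.55 ± 0.069), the angiopoietin receptor, and Pecam1 (0.53 ± 0.086).

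Of 13 markers of mesangial cells, pericytes and renin cells 6 were higher and none lower, led by Itga8 (1.10 ± 0.11), the mesangial integrin, at 14.4 to 21.6 CPM (median 16.02) against 6.76 to 9.19 CPM (median 7.88). Ren1 was not called (-0.25 ± 0.19). Matrix and fibroblast genes were mixed, 8 of 19 higher and 3 lower: Fbln5 (0.95 ± 0.12), of elastic fibres, and Sparc (0.54 ± 0.073) were higher, while Col5a2 (-1.19 ± 0.081) and Timp3 (-0.55 ± 0.071) were lower. Their summed level was 1617 to 1874 CPM in ob and 1772 to 2060 CPM in b6j, with overlap, and the median of the members was 0.328.

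Summed markers of both groups of proximal tubule segments lay below b6j in every ob library. Of 14 S3 markers 10 were lower and 3 higher (median -0.422), and their summed level was 6383 to 8562 CPM in ob against 11370 to 14350 CPM in b6j, with no overlap. Of these members 3, Cyp7b1, Slc7a13 and Slc7a12, are also on the sex-biased lists. Acy3, an aminoacylase, lay at 911 to 1499 CPM (median 1199) against 2198 to 3186 CPM (median 2940.2) and the phospholipid flippase Atp11a at 616 to 1049.8 CPM (median 904) against 1942 to 2547 CPM (median 2320.3). Their differences were -1.27 ± 0.10 and -1.37 ± 0.12. The glucose carrier Slc5a1 (0.34 ± 0.063) was higher. Of 18 markers of S1 and S2, 9 were higher and 5 lower (median 0.134), while their summed level was 15690 to 18720 CPM in ob against 19300 to 20920 CPM in b6j. No test compared the segments with each other. Among them the organic anion transporter Slc22a8 (0.63 ± 0.099) and Slc7a8 (0.50 ± 0.086) were higher, and Slc22a6 (-0.76 ± 0.089), Cyp2e1 (-0.997 ± 0.081) and Amn (-0.40 ± 0.052), the anchor of the cubilin receptor, lower.

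In the distal nephron the called markers were mostly higher. Of 14 markers of the loop of Henle 2 were higher and 1 lower, of 15 of the distal convoluted and connecting tubule 5 and 3, of 12 of principal cells 3 and 1, and of 13 of intercalated cells 6 and none. With library size alone these were 7 and none, 9 and 2, 7 and 1, and 9 and none. With all 36 libraries in the fit they were 1 and none, 2 and 1, 2 and 1, and 2 and none. Of all genes 30.6% were called, a share above that of the loop of Henle list and near that of principal cells. Umod was not called (-0.01 ± 0.094). S100g, the calcium carrier calbindin-D9k, was higher (0.77 ± 0.13), and so were Trpv5 (0.50 ± 0.093), the calcium channel of the same cells, and Car2 (0.47 ± 0.067), carbonic anhydrase of intercalated cells. Sgk1, the kinase that aldosterone and glucocorticoids induce, lay at 134 to 201 CPM (median 166) against 66.8 to 126 CPM (median 78.0) and differed by 0.92 ± 0.15. Scnn1a, a subunit of the sodium channel ENaC, was lower (-0.32 ± 0.055).

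Other cell types were read against the 30.6% of all tested genes that were called. Of 10 urothelial markers 4 were called, all higher in ob. Upk1b, a uroplakin, lay at 2.00 to 14.7 CPM (median 10.2) against 1.63 to 6.32 CPM (median 2.95), and ob replicate 5 stood among the b6j libraries at 2.00 CPM. Summed urothelial markers were 140 to 268 CPM in ob and 147 to 249 CPM in b6j, while the median log2 difference of the 10 was 1.01. Of 18 macrophage and dendritic cell markers 3 were higher (C1qb 0.24 ± 0.068, C1qc 0.29 ± 0.088, Cx3cr1 0.58 ± 0.20) and 2 lower (Csf1r -0.45 ± 0.088, Ccr2 -0.54 ± 0.14), a share near that of all genes. The call of Cx3cr1 ended without any 1 of 6 libraries (ob replicates 1, 2 and 6, b6j replicates 1, 2 and 3). DESeq2 and limma-voom each gave 5 higher and 2 lower, and the fit of all 36 libraries none. Of 12 tested lymphoid and neutrophil markers only Igkc was called (-0.96 ± 0.22). All 17 genes of that list summed to 15.0 to 26.3 CPM in ob and 21.9 to 41.6 CPM in b6j. The red blood cell list had no call among 6, and of 10 adrenal genes, 4 at 0 reads in all 12 libraries, 1 was tested and not called.

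**Figure D3:**
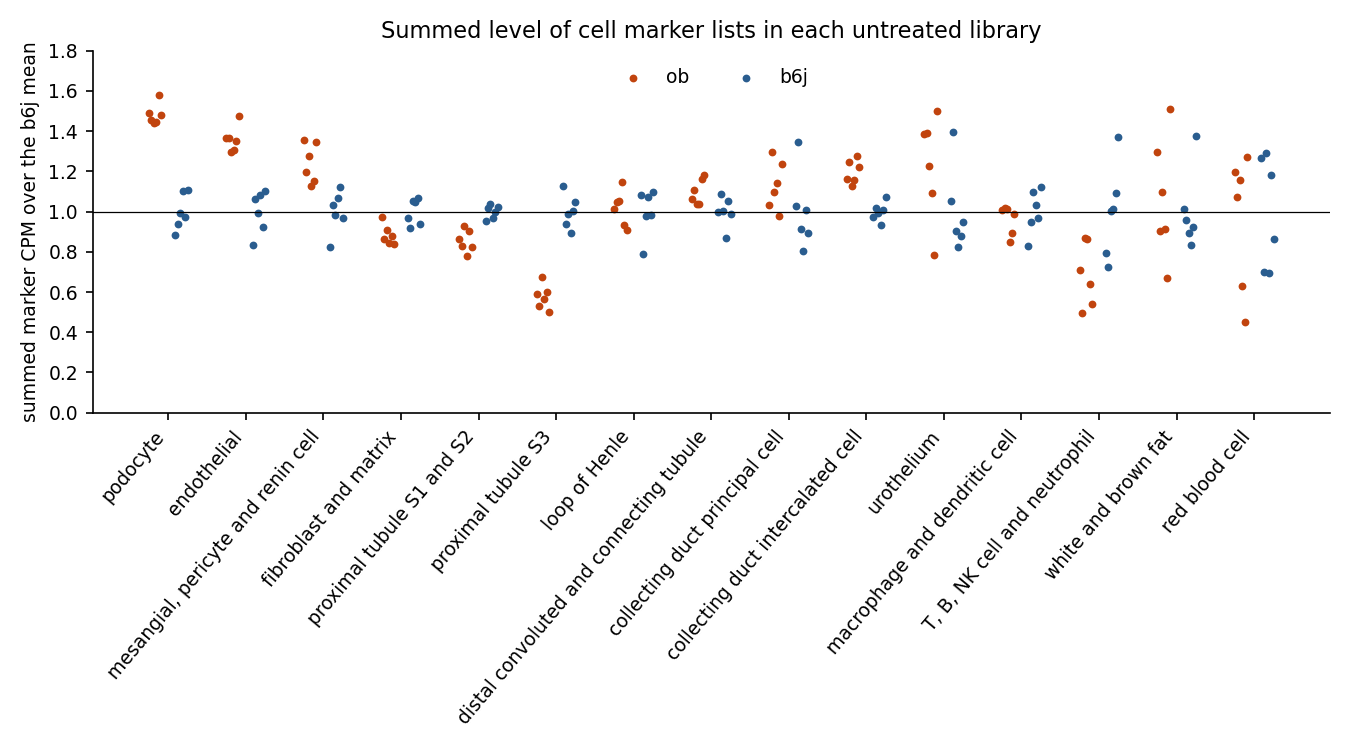
Summed CPM of each cell marker list in each untreated library, divided by the mean of the 6 b6j libraries, which the line at 1 marks. Podocyte, endothelial, mesangial and intercalated cell sums of the 6 ob libraries lie above all b6j libraries and both proximal tubule sums below, while urothelium, fat and red blood cell sums overlap.

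Transporters of organic ions were mostly lower and efflux pumps higher. The proximal tubule takes up drugs, toxins and urate from blood through transporters of the Slc22 and Slco families and releases them into urine partly through ABC pumps. Of 25 organic anion and cation transporters 13 were lower and 4 higher (median -0.290). Besides Slc22a7, Slc22a26 lay at 2.27 to 3.35 CPM (median 2.88) against 12.9 to 19.7 CPM (median 16.03) and Slc22a19 at 11.2 to 23.3 CPM (median 18.5) against 52.1 to 106 CPM (median 78.6), differing by -2.51 ± 0.12 and -2.18 ± 0.17 with no overlap. Slc22a12, the urate exchanger URAT1, the cation transporter Slc22a2 and Slc22a6, the classical organic anion transporter, were lower by less (-0.80 ± 0.074, -0.83 ± 0.070 and -0.76 ± 0.089). Slc22a8, which shares many substrates with Slc22a6, was higher by 0.63 ± 0.099.

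Of 12 ABC transporters 9 were higher and none lower (median 0.499). Abcb1b and Abcb1a, the 2 mouse P-glycoproteins, lay at 32.0 to 45.5 CPM (median 39.2) and 17.8 to 20.8 CPM (median 19.8) in ob against 5.59 to 13.3 CPM (median 8.87) and 4.86 to 10.2 CPM (median 5.85) in b6j. Neither overlapped, and they differed by 2.09 ± 0.17 and 1.59 ± 0.14. Abca1 (0.54 ± 0.15), which exports cholesterol, was higher by less. Amino acid transporters were mixed, 9 of 26 higher and 7 lower: Slc1a4 (-1.51 ± 0.11), a carrier of serine and alanine, and Slc7a13 (-1.03 ± 0.14), the S3 cystine carrier, were lower, and Slc38a3 (0.61 ± 0.099), the glutamine carrier, and Slc7a9 (0.47 ± 0.072) were higher.

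Conjugating enzymes leaned to ob. Of 21 glutathione S-transferases 12 were higher and 1 lower (median 0.318). Gsta2 lay at 387 to 484 CPM (median 455) against 109 to 175 CPM (median 139) and Mgst1 at 142 to 182 CPM (median 164) against 65.8 to 85.1 CPM (median 70.6), with differences of 1.67 ± 0.11 and 1.17 ± 0.074 and no overlap. Gsta4, which conjugates the lipid aldehyde 4-hydroxynonenal, was higher by 1.46 ± 0.11. Of 14 UDP-glucuronosyltransferases 6 were higher and 3 lower. Beside the Ugt1a members, Ugt2b34 (1.14 ± 0.10) and Ugt2b5 (1.20 ± 0.19) were higher and Ugt2b38 (-1.34 ± 0.13) lower. Cytochromes P450 of families 2 and 4 leaned the other way, 10 of 21 lower and 4 higher. Cyp2d26 was higher (1.53 ± 0.091), Cyp2j13 lower (-1.01 ± 0.12), and Cyp2b10, the classical target of the receptor CAR, lay at 0.0597 to 0.472 CPM in ob and 0.848 to 3.56 CPM in b6j (-3.22 ± 0.42).

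Fat handling genes did not move as 1 block. A pair of genes of fatty acid uptake was lower: Lpl, the lipase that frees fatty acids from lipoproteins, lay at 140.0 to 199 CPM (median 167) in ob and at 578 to 1079.5 CPM (median 911) in b6j, and the fatty acid receptor Cd36 at 204 to 315 CPM (median 263) against 511 to 705 CPM (median 589). The differences were -2.36 ± 0.14 and -1.21 ± 0.10, with no overlap in either. Of 21 genes of fatty acid and triglyceride synthesis 6 were lower and 4 higher, and Me1, the malic enzyme that supplies NADPH, was lower (-0.95 ± 0.065). Of 25 genes of fatty acid oxidation and PPAR-alpha targets 5 were higher and 8 lower. The direction of both medians turned with library size alone. Within that list the hydroxylases Cyp4a14 and Cyp4a10 (0.61 ± 0.14) were higher, while the peroxisomal oxidation enzyme Ehhadh (-0.95 ± 0.093) was lower. Ehhadh lay at 395 to 519 CPM (median 461) against 713 to 1077 CPM (median 872), without overlap. Among mitochondrial enzymes Acadm (-0.53 ± 0.062) and the carnitine transferase Cpt1a (-0.28 ± 0.055) were lower and the thiolase Acaa2 (0.86 ± 0.10) higher. Ppara itself was not called (0.09 ± 0.093).

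Genes of cholesterol synthesis were mostly lower. The enzymes are induced together by the factor SREBP-2 when cells lack sterol. Of 25 genes 17 were lower and none higher (median -0.384), against 15.8% lower among all genes, and 13 were lower with library size alone. Mvd and Idi1, of the mevalonate branch, lay at 45.8 to 61.2 CPM (median 51.1) and 8.74 to 13.9 CPM (median 11.4) in ob against 97.0 to 103 CPM (median 98.7) and 18.1 to 43.0 CPM (median 32.3) in b6j. They differed by -0.94 ± 0.059 and -1.48 ± 0.16. Cyp51, lanosterol demethylase, differed by -1.16 ± 0.15. In each of these 3 the 6 ob libraries lay below the 6 b6j libraries. Srebf2 (-0.25 ± 0.064) and Insig1 (-0.61 ± 0.15), which holds the factor back, were lower too. At 0.5 mg/kg 12 of the list were called lower and none higher, in other mice of both types (10.1% of all genes were called lower there).

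Promoters of this pathway are shown because the members moved together. The 250 bases before the annotated start were searched on both strands for CCAAT, the letters that NF-Y binds beside SREBP. RefSeq promoters of GRCm38.p6 were at hand for 17 of the 25 genes. CCAAT was found in 16 of the 17, with Acat2 the exception, and in 12 of the 13 that were called, against 37.5% of the 27025 genes with a promoter in the table and 39.5% of the tested ones. The sterol regulatory element, also searched, was found in 1 of the 17, Hmgcs1, against 1.32% of the tested genes. Of the called members with a promoter the 3 of smallest p that hold a match are printed 5′ to 3′ in the direction of the gene, with CCAAT or its reverse ATTGG in capitals. They lie at chr8:122443423-122443672 (minus strand), chr13:8885356-8885605 (plus strand) and chr5:4104698-4104947 (minus strand). A match describes the letters and is no evidence of binding.
Mvd: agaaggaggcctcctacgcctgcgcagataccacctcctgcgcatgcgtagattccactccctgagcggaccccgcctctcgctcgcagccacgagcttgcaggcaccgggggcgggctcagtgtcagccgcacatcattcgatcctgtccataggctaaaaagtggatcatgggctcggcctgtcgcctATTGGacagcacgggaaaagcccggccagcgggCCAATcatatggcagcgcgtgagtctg
Idi1: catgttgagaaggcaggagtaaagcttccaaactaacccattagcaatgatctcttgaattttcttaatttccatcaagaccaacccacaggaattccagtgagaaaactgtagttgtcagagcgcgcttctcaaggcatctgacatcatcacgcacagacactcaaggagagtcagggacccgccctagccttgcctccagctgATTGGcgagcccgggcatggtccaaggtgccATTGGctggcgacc
Cyp51: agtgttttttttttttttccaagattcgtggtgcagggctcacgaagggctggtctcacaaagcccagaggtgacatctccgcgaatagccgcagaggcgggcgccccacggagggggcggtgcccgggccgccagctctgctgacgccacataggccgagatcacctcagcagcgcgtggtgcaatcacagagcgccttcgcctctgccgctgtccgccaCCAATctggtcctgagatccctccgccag

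Sugar, amino acid and mitochondrial genes moved by small steps. Of all genes 14.8% were higher and 15.8% lower, beside which the lists here and in the paragraphs that follow stand. The called shares of the insulin signalling and mitochondrial genome lists were below the 30.6% of all genes. Of 15 genes of gluconeogenesis and glucose transport 7 were higher and 1 lower (9 and none with library size alone, 1 and none with all 36 libraries in the fit): Slc2a2 (0.54 ± 0.071), the glucose carrier GLUT2, the fructose carrier Slc2a5 (0.52 ± 0.089) and Slc5a2 (0.39 ± 0.090), the target of SGLT2 inhibitors, were higher. Pck1 (-0.08 ± 0.16) and G6pc (-0.09 ± 0.084), the enzymes at the start and end of gluconeogenesis, were not called. Pdk4, which shuts glucose carbon out of the mitochondrion, was lower (-1.05 ± 0.25) and Pdk1 higher (0.81 ± 0.065). Of 16 insulin signalling genes 1 was higher and 3 lower (6 and 1 with library size alone), and of 18 of glycolysis 3 were higher and 5 lower (4 and 3). Of 27 nuclear-encoded subunits of the respiratory chain 10 were lower and 1 higher, but with library size alone 3 were lower and 8 higher, so no direction is given for them. Of 12 genes of the mitochondrial genome 3 were lower and none higher, led by mt-Nd2, with a median of -0.215. Library size alone left 1 lower and the fit of all 36 libraries none, while DESeq2 gave 5 and limma-voom 7. At 0.5 mg/kg 1 was higher and none lower (median 0.09).

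In the breakdown of tryptophan towards NAD, Kynu was higher while Kyat1 (-0.68 ± 0.073) and Aadat (-0.80 ± 0.11), which turn kynurenine into kynurenic acid, and Afmid (-0.39 ± 0.081) and Haao (-0.40 ± 0.070), which act before and after Kynu, were lower. In all 8 of 17 genes were lower and 2 higher, but 5 and 3 with library size alone, where the median turned from -0.09 to 0.04, and 2 and 1 with all 36 libraries in the fit. In the methionine and betaine list 4 of 22 were higher and 5 lower (10 and 5 with library size alone): Bhmt was higher, and Cbs (-0.66 ± 0.068), which turns homocysteine towards cysteine, Chdh (-0.46 ± 0.057), which makes betaine from choline, and Ahcy (-0.45 ± 0.078) were lower. Chdh lay at 306 to 378 CPM (median 335) against 425 to 489 CPM (median 470.0), without overlap.

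The angiotensin system was mixed. Of 11 tested genes 5 were higher and 3 lower. Ace, which makes angiotensin II, lay at 103 to 165 CPM (median 107) in ob and at 286 to 367 CPM (median 322) in b6j, a difference of -1.47 ± 0.10 (adjusted p = 2.43e-08) with no overlap. Anpep, aminopeptidase N, was lower (-0.68 ± 0.082). Mas1, the receptor of angiotensin 1-7, was scarce in both groups, at 0.147 to 0.814 CPM (median 0.379) against 0.969 to 3.06 CPM (median 2.14) (-2.17 ± 0.38). Agt, the precursor, was higher by 0.33 ± 0.076.

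In the vitamin D, phosphate and calcium list 7 of 17 were higher and 6 lower. Both enzymes that set active vitamin D were higher: Cyp27b1, which makes it, lay at 3.40 to 18.3 CPM (median 7.79) against 1.94 to 5.99 CPM (median 3.55), and Cyp24a1, which degrades it, at 264 to 746 CPM (median 583) against 62.3 to 329.8 CPM (median 188). Their groups overlapped, and the differences were 1.27 ± 0.37 and 1.495 ± 0.31. Without ob replicate 5 Cyp27b1 was 0.92 (adjusted p = 0.0508) and not called. Gc, the vitamin D binding protein, lay at 136 to 239 CPM (median 188) against 17.9 to 91.1 CPM (median 27.7) (2.35 ± 0.31). The parathyroid hormone receptor Pth1r (-0.56 ± 0.068), the phosphate exporter Xpr1 (-0.34 ± 0.054) and Kl (-0.32 ± 0.053), the FGF23 co-receptor klotho, were lower, while Slc34a3 (0.51 ± 0.098), the minor phosphate transporter, was higher.

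Of 22 heat shock genes 13 were lower in ob and none higher, against 15.8% of all genes that were lower (median -0.318, 9 lower with library size alone). Hsp90ab1 lay at 813 to 1027 CPM (median 873) against 1220.3 to 1453 CPM (median 1392) and Hsp90aa1 at 202 to 253 CPM (median 242) against 326 to 408 CPM (median 391). The differences of these cytosolic chaperones were -0.61 ± 0.063 and -0.69 ± 0.067, with no overlap. Their co-chaperones Stip1 (-0.42 ± 0.050), Ahsa1 (-0.38 ± 0.047) and Fkbp4 (-0.41 ± 0.060) and the mitochondrial Hspd1 (-0.41 ± 0.051) were lower as well. The stress-induced Hspa1a (-0.21 ± 0.22) and Hspa1b (-0.09 ± 0.30) were not called. In the endoplasmic reticulum 9 of 23 genes were lower and 1 higher (5 and 2 with library size alone). Edem1 (-0.50 ± 0.069), Calr (-0.45 ± 0.074) and Hyou1 (-0.41 ± 0.084) were among the lower. Herpud1 was the member that was higher (0.30 ± 0.070).

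Redox and metal genes were mixed. Of all genes 14.8% were higher and 15.8% lower. Of 20 targets of the factor NRF2 5 were higher and 8 lower, and the sign of the median turned with library size alone. Nqo1 (0.69 ± 0.078), Cbr3 (1.32 ± 0.18) and Nfe2l2, the factor itself (0.36 ± 0.050), were higher, and Gclm (-0.68 ± 0.071), of glutathione synthesis, and Hmox1 (-0.78 ± 0.14) lower. Of 21 metal genes 8 were lower and 2 higher. The metallothioneins Mt1 (-0.05 ± 0.11) and Mt2 (0.13 ± 0.41) were not called. The zinc exporter Slc30a2 lay at 44.8 to 62.9 CPM (median 49.4) against 91.0 to 129 CPM (median 101) (-1.004 ± 0.091), the iron carrier Slc11a2, which also carries cadmium, at 85.2 to 94.5 CPM (median 92.0) against 120.1 to 135 CPM (median 129) (-0.48 ± 0.044), and neither overlapped. Ferritin heavy chain Fth1 (-0.45 ± 0.066) and the transferrin receptor Tfrc (-0.68 ± 0.11) were lower together.

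Among 19 tubular injury genes 5 were higher and Havcr1 alone lower, a share near the 30.6% of all genes that were called. DESeq2 gave 6 higher and none lower, and the fit of all 36 libraries 2 higher and 1 lower. Of all genes 14.8% were higher and 15.8% lower, beside which the lists that follow stand. Spp1 lay at 699 to 1016 CPM (median 916) against 381 to 522 CPM (median 437), and Vcam1 was higher by 0.67 ± 0.15. Lcn2 was not called (-0.08 ± 0.17). In the complement list 8 of 20 were higher and 5 lower: C3, the central component, lay at 45.2 to 85.1 CPM (median 53.3) against 15.5 to 27.8 CPM (median 24.2) (1.30 ± 0.15). The decay factor Cd55 was lower (-0.996 ± 0.11). C4a (-3.58 ± 0.34) and C4b (-0.54 ± 0.14) are near-identical copies, so their split is uncertain. Of 25 interferon and MHC genes 3 were higher and none lower (8 and none with library size alone), none of these 3 by more than 0.38. That share is below the 14.8% of all genes that were higher. Of 17 chemokines and their receptors 5 were higher and 2 lower, and of 23 cell cycle genes 3 were higher and 1 lower. Of 15 glucocorticoid targets 2 were higher and 4 lower (4 and 2 with library size alone). Among 16 immediate early genes 4 were higher and 1 lower: Klf2 (1.05 ± 0.11), which blood flow induces in endothelium, and Nr4a1 (1.28 ± 0.24) were among the higher.

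Clock genes differed in both directions. The factors CLOCK and BMAL1 bind E-boxes and drive the Per, Cry and Rev-erb genes, which then repress them. Of 19 genes 8 were higher and 4 lower, or 12 and 1 with library size alone. Per1 lay at 95.5 to 123 CPM (median 111) in ob and at 52.7 to 78.3 CPM (median 66.4) in b6j, without overlap (0.75 ± 0.088, adjusted p = 7.71e-06). Ciart (0.66 ± 0.099), Bhlhe41 (0.99 ± 0.19), Dbp (0.43 ± 0.11) and the Rev-erb genes Nr1d1 (0.46 ± 0.14) and Nr1d2 (0.29 ± 0.062) were higher. Nfil3 lay at 1.43 to 2.83 CPM (median 1.65) against 3.56 to 11.97 CPM (median 7.30) (-1.93 ± 0.26). The hour at which each mouse was killed is not given in the sources used here, and its part in these values was not tested. The groups overlapped in Dbp and Nr1d1.

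The E-box CACGTG was found in the 250 bases before the start of 5 of 16 clock genes with a RefSeq promoter (Per1, Cry1, Tef, Bhlhe41 and Ciart) and of 3 of the 11 that were called, against 6.86% of all genes with a promoter and 9.51% of the tested ones. The D-box, also searched, was found in 2 of the 16, Per1 and Per3, against 3.63% of all genes with a promoter and 2.5% of the tested ones. A further 3 motifs were searched in other lists. The androgen response element was in 0 of 9 male-biased genes with a promoter, against 0.02% of the tested genes. The heat shock element was in 2 of 16 heat shock genes (0.46% of the tested genes). The STAT5 site was in 2 of 18 genes of the hormone and JAK-STAT list (7.25%), 1 of them called. CACGTG reads the same on both strands. The 2 called genes of smallest p that hold it are printed in the direction of the gene, with E-boxes in capitals. They lie at chr11:69098699-69098948 (plus strand) and chr3:95882229-95882478 (minus strand). Ciart holds 3 E-boxes in this window and Per1 holds 1.
Per1: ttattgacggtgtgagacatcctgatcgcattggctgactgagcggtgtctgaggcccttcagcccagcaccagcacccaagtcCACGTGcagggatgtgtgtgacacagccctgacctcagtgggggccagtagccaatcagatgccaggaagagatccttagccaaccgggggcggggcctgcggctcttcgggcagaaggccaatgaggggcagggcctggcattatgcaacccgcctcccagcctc
Ciart: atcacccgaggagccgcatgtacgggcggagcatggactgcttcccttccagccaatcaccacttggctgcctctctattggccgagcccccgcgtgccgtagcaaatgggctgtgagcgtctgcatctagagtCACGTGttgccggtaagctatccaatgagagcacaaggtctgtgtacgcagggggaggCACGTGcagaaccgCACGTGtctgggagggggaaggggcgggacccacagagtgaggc

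**Figure D4:**
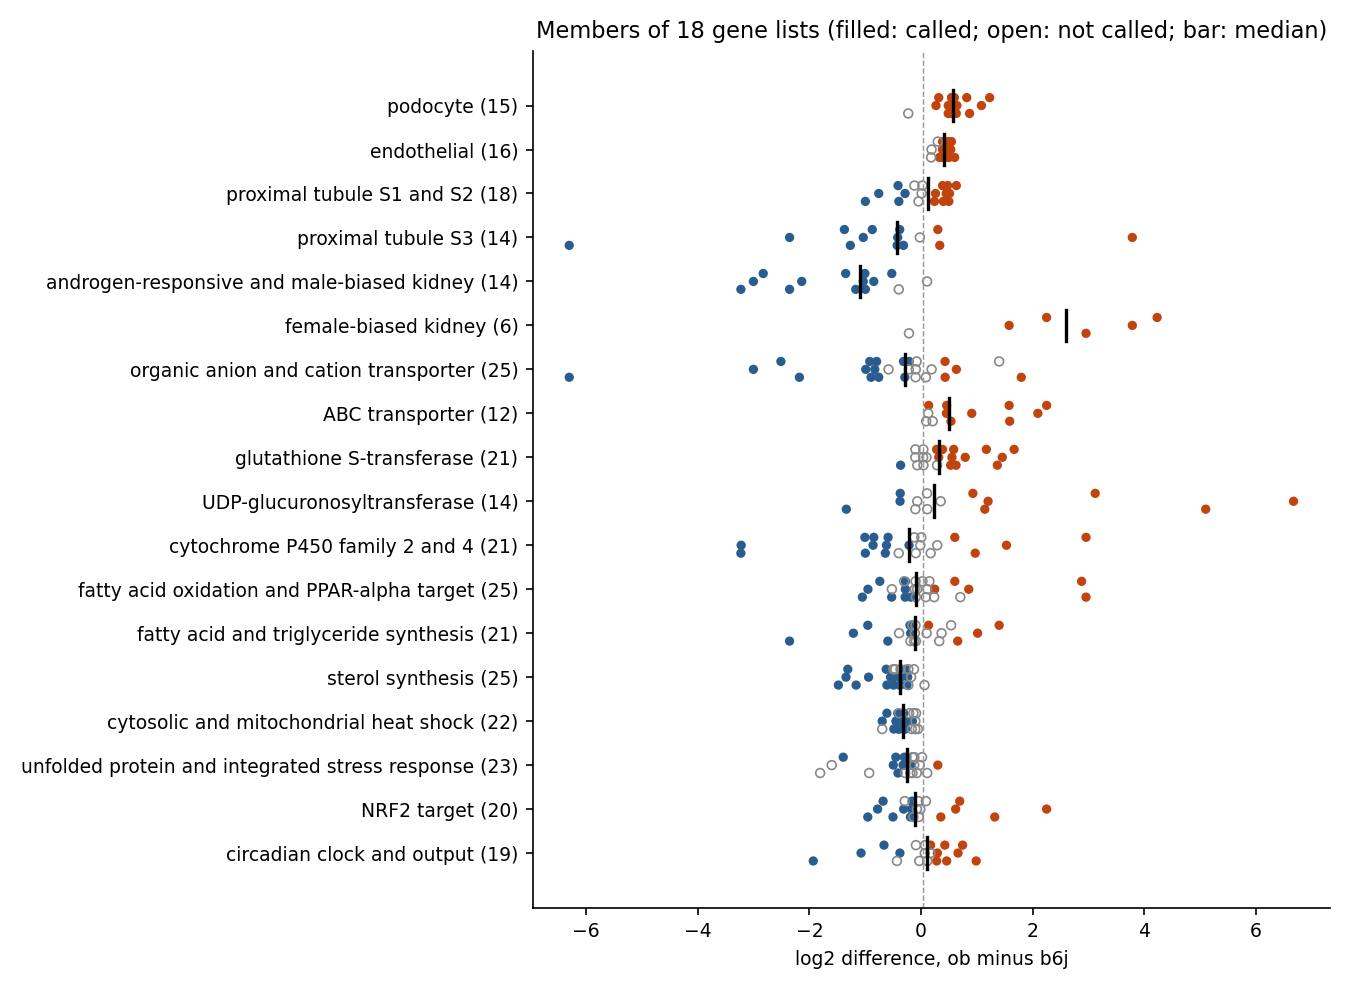
Log2 difference of each tested member of 18 gene lists, with the number tested in brackets, filled points for called genes, open points for the others and a bar at the median of the list. The dashed line is the median of all genes at 0.0321. Called podocyte and female-biased points all lie to the right, called sterol, heat shock and male-biased points to the left.

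The same difference was measured in other mice, given cadmium, whose libraries share none with the untreated comparison. At 0.5 mg/kg 3044 of 16229 genes were called between ob and b6j (18.8%), 8.62% of them higher in ob and 10.1% lower as shares of the genes tested. Of the 5007 genes called in untreated mice 4983 were tested there. The sign was the same in 4421 of them (88.7%), against 63% of the genes not called in untreated mice, 1997 (40.1%) were called in the same direction and 29 in the opposite one. Above 2-fold the sign was the same in 419 of 445 genes (94.2%). Slc22a7 (-5.64 ± 0.27), Akr1c18 (-4.13 ± 0.42), Acsm3 (-2.55 ± 0.21) and Lpl (-2.14 ± 0.14) stayed near their untreated values of -6.30, -4.54, -2.83 and -2.36. Prlr was 2.63 ± 0.24, Slc7a12 2.11 ± 0.32 and Kynu 1.99 ± 0.20, each smaller than in untreated mice. Ugt2b5 (3.21 ± 0.21), Cbr3 (3.13 ± 0.15) and Gsta4 (2.42 ± 0.15) were larger than in untreated mice. These differences between doses were not tested.

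Some groups kept their direction at 0.5 mg/kg and others did not. Of the male-biased list 12 were lower and none higher, with a median of -1.04. Of the heat shock genes 13 were lower and none higher. Of the podocyte markers 6 were called higher, with a median of 0.259 where it had been 0.566. At 0.5 mg/kg, with both types given cadmium, 11 NRF2 targets were higher in ob and 1 lower. Of the clock genes 2 were higher and 4 lower. Havcr1 was not called (-0.47 ± 0.37). Hmox1, lower in untreated ob mice, was higher in ob mice at 0.5 mg/kg (2.48 ± 0.090), and Mas1 turned in the same way (1.36 ± 0.15).

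At 2 mg/kg 461 of 16817 genes were called (2.74%), and 2216 (13%) when ob_Cd2 replicate 5, a library that stands far from its group, was left out. Of the untreated calls 3780 of 4974 had the same sign (76%), against 58.7% of the genes not called in untreated mice. Of them 347 were called in the same direction and 3 in the opposite one. Without that library it was 4179 of 4980 (83.9%, against 61%), with 1291 and 31. With all libraries 1 podocyte marker, no endothelial marker and no heat shock gene was called, with medians of 0.0499, -0.0763 and -0.114. Of the male-biased list 6 were lower and none higher, with a median of -1.27. Slc22a7 was -5.66 ± 0.38, Akr1c18 -6.12 ± 0.48, Cyp7b1 -4.04 ± 0.41 and Gm6300 -7.57 ± 0.54 at that dose, all called. Prlr (0.92 ± 0.30) and Slc7a12 (0.88 ± 0.73) were not called there with all 12 libraries.

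**Figure D5:**
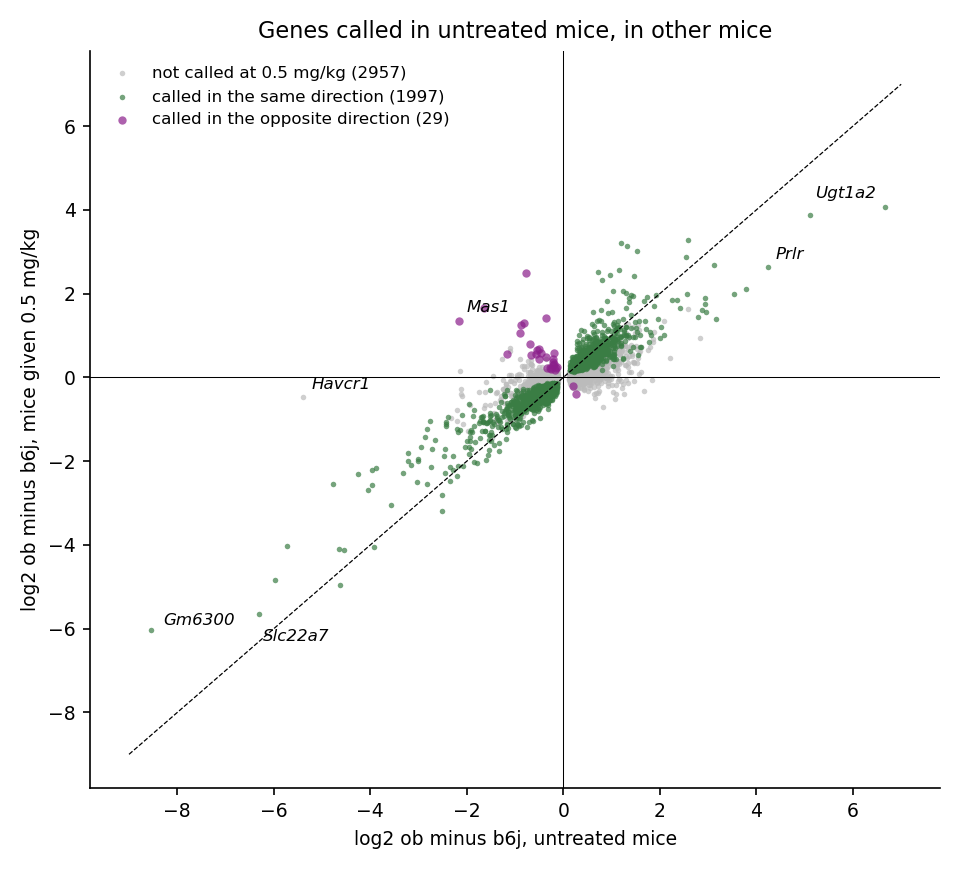
Log2 difference between ob and b6j in mice given 0.5 mg/kg against that in untreated mice, for the 4983 genes called in untreated mice and tested in both, with the diagonal dashed. Green points, 1997, were called in the same direction and purple points, 29, in the opposite one, Mas1 among them.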

How the data were processed

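Per the labels, RNA came from snap-frozen kidney extracted with TRIzol. Per the submitters' processing notes the tools were bcl2fastq, Trimmomatic, FastQC and STAR on GRCm38. Per the file headers featureCounts 1.4.6-p2 made the deposited read counts per gene of Ensembl 96, ignoring strand, so a gene and an antisense neighbour cannot be told apart. From these counts CPM were computed with TMM-scaled library sizes (R 4.3.3). The main test was edgeR 4.0.16's quasi-likelihood test on the 12 untreated libraries after filterByExpr, with Benjamini-Hochberg adjustment and a threshold of 0.05. The 0.5 and 2 mg/kg mice were fitted apart, each with 12 libraries. Alternatives were DESeq2 1.42.0, limma-voom (limma 3.58.1), RLE scaling, library size alone, other filters, all 36 libraries, a replicate block and each library left out. A further 36 columns of sample values were not used. Within each untreated group no 2 libraries were duplicates, and other pairs were not compared.

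On simulated counts of this comparison the test found 70.6% of genes changed 1.5-fold and 90% of those changed 2-fold, with 200 genes changed among 16265 to 16289 tested, and 5.67% of its calls were unchanged genes. The changed genes were drawn without the scarcest ones and their directions were set at random. The data gave 5007 calls, far more than were changed in the simulation, so these rates may not hold for them. Scaling between unequal groups was not probed. The members and the 50 gene lists were chosen with earlier results of these data known. Genes were named by rule: the 12 called genes with the largest log2 difference in each direction, without overlap and at least 5 CPM in the higher group, the 6 with the largest difference in CPM in each direction, up to 6 called members of smallest p of each list, up to 6 called genes near Lep, and Lep, Lepr, Mt1, Mt2, Havcr1, Lcn2, Hmox1 and Nnt. Another 32 of the 202 genes named in the report were chosen after their values were seen. The 202 leave out Slc22a28, Slc22a29, Slc22a30, Serpina1a and Serpina1e, whose values are given only under Other observations. Some genes are not reported here. Promoters are from RefSeq's table for GRCm38.p6.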

Additional observations from a re-analysis of the deposited data

Results flagged for a closer look

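Among the genes named in the report, 33 of 404 groups of 6 libraries (8.2%) held 1 library set apart from the other 5, its gap to the nearest being past Dixon's critical share of the range of the group. Genes whose values are given only under Other observations were not screened. Chance flags about 1 in 20 groups, genes of 1 library are not independent of each other, and many of these genes were named for their differences.

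Library b6j replicate 4 held 9 of them, Havcr1 and Hmox1 included. Library b6j replicate 4 stood apart in Fkbp4 (306 CPM, the lowest, next 361 CPM), Gc (91.1 CPM, the highest, next 37.9 CPM), Gm6614 (27.1 CPM, the highest, next 4.68 CPM), Haao (252 CPM, the lowest, next 307 CPM), Havcr1 (182 CPM, the highest, next 13.0 CPM), Hmox1 (72.0 CPM, the highest, next 43.3 CPM), Insig1 (96.8 CPM, the highest, next 62.7 CPM), Klk1 (1264 CPM, the lowest, next 1686 CPM) and Slc22a6 (1146 CPM, the lowest, next 1348 CPM). Library ob replicate 3 stood apart in Ace (165 CPM, the highest, next 118 CPM), Aldh1a1 (69.8 CPM, the highest, next 56.4 CPM), Cbs (219 CPM, the highest, next 181 CPM), Neurog2 (1.05 CPM, the highest, next 0.0650 CPM), Slc22a12 (1096 CPM, the highest, next 856 CPM) and Spp1 (699 CPM, the lowest, next 900.2 CPM). Library ob replicate 6 stood apart in Cx3cr1 (4.81 CPM, the highest, next 3.79 CPM), Nr4a1 (13.1 CPM, the highest, next 9.49 CPM), Pdk4 (36.7 CPM, the highest, next 15.99 CPM), S100g (879 CPM, the highest, next 595 CPM), Slc11a2 (85.2 CPM, the lowest, next 91.4 CPM) and Xpr1 (89.2 CPM, the lowest, next 101 CPM). Library b6j replicate 6 stood apart in Adipoq (4.63 CPM, the highest, next 0.735 CPM), Ppara (75.9 CPM, the highest, next 61.5 CPM), Prlr (14.6 CPM, the highest, next 6.31 CPM) and Ucp1 (9.38 CPM, the highest, next 0.936 CPM). Library b6j replicate 3 stood apart in Gusb (77.9 CPM, the highest, next 58.7 CPM) and Slc30a2 (129 CPM, the highest, next 103 CPM). Library b6j replicate 5 stood apart in Agt (82.7 CPM, the highest, next 69.0 CPM) and Cyp4a14 (145 CPM, the highest, next 58.4 CPM). Library b6j replicate 1 stood apart in Acat2 (69.9 CPM, the lowest, next 82.5 CPM). Library b6j replicate 2 stood apart in Hspa1b (80.4 CPM, the highest, next 41.7 CPM). Library ob replicate 4 stood apart in Ppara (48.5 CPM, the lowest, next 63.8 CPM). Library ob replicate 5 stood apart in C3 (85.1 CPM, the highest, next 59.4 CPM).

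Hmox1 and Mas1 differed in opposite directions in untreated mice and in mice given 0.5 mg/kg, with no overlap between ob and b6j either time. In untreated mice Hmox1 was at -0.78 and Mas1 at -2.17 on the log2 scale. At 0.5 mg/kg Hmox1 was at 2.48 and Mas1 at 1.36. The change between doses was not tested.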

How the results depend on the processing

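No named gene that was called and put through these settings changed direction under any of them in the untreated comparison. Slc22a28, Slc22a29, Slc22a30, Serpina1a and Serpina1e, whose values are given only under Other observations, were not put through them. DESeq2 called 5376 of 16333 genes, and of 16349 limma-voom with sample weights called 5417 and RLE scaling 5022. Without a filter on low counts 4578 of 30020 were called, and with at least 1 CPM in 6 libraries 4977 of 13906. Library size alone gave 4994 genes higher and 1397 lower, and it ended the call of Srebf2. With all 36 libraries in the fit 2822 were called, 1199 higher and 1623 lower, 12 within 10 Mb of Lep, and 1041 were called alike at 0.5 mg/kg and 1021 at 2 mg/kg. It ended the calls of 39 named genes: Aadat, Afmid, Agt, C1qb, C1qc, C4b, Cbs, Ccr2, Chdh, Csf1r, Cx3cr1, Cyfip2, Cyp27b1, Cyp4a10, Dbp, Ddx3y, Ehhadh, Fth1, Gpx3, Haao, Herpud1, Igkc, Kl, Pdk4, Per1, Per3, Plin4, Slc13a1, Slc22a8, Slc2a2, Slc2a5, Slc34a1, Slc34a3, Slc5a2, Slc7a13, Stat3, Trpv5, Vcam1 and mt-Nd2. Limma-voom ended those of Havcr1 and Cyp27b1, and DESeq2 gave Havcr1 no adjusted p. That fit of 36 shares 1 estimate of spread with the cadmium groups, and the cause of the lower counts was not tested. Leaving out 1 untreated library gave 4389 calls (without ob replicate 2) to 5058 (without b6j replicate 4), 2007 to 2435 higher and 2313 to 2716 lower, and 450 to 536 above 2-fold. Within 10 Mb of Lep it gave 21 to 33, and of the calls repeated at 0.5 mg/kg 1708 to 2077.

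The calls repeated at 2 mg/kg, 347 with all libraries, were the least stable: 768 with DESeq2, 1330 with limma-voom, 85 with a replicate block and 184 to 1291 with 1 library left out. The highest is without ob_Cd2 replicate 5, and the count was 201 without ob_Cd2 replicate 1 and 207, 189, 216, 195 and 184 without b6j_Cd2 replicates 1, 3, 4, 5 and 6. Replicate numbers are shared by the groups and were not taken as pairs. Same-numbered untreated libraries correlated by 0.024 to 0.127, and 3 of 6 correlated best with their own number. Whether same-numbered libraries shared a batch was not tested. With the replicate block 4852 genes were called in untreated mice. Depth limits genes near 3 counts, such as Gm6300 and Lep, whose ratios have no fixed size.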

Other observations

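Neighbouring genes of 1 family stood on opposite sides in several places. The pairs were chosen after their values were seen, and reads of near-identical copies may be split wrongly between them. In the cluster of fatty acid hydroxylases on chromosome 4, Cyp4a14 (2.96 ± 0.44) and Cyp4a10 (0.61 ± 0.14) were higher in ob and Cyp4a12a (-3.23 ± 0.15) lower. In the organic anion transporter cluster on chromosome 19, Slc22a29 was higher (1.798 ± 0.22), at 3.83 to 8.49 CPM in ob and 0.875 to 2.34 CPM in b6j, while Slc22a26 (-2.51 ± 0.12), Slc22a28 (-0.89 ± 0.091), Slc22a30 (-0.92 ± 0.12) and Slc22a19 (-2.18 ± 0.17) were lower. Among the antitrypsin copies Serpina1a was higher (1.55 ± 0.13) and Serpina1e lower (-3.94 ± 0.80).

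In windows of 10 Mb with at least 20 tested genes, the first of chromosome 13 held the highest share of called genes, 18 of 30 (60%), 8 of them above 2-fold. Akr1c18 and its aldo-keto reductase relatives lie there, so neighbouring members of 1 family make up part of the count. It was singled out from all windows after the values were seen.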
